A study of Mus musculus with 18 samples.

Results

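The genes of the TGF-beta ligands, their receptors and the proteins that hold the ligands latent in the extracellular matrix were followed in cardiac fibroblasts of the neonatal mouse heart. The members are 3 ligands (Tgfb1, Tgfb2 and Tgfb3), 3 receptors (Tgfbr1, Tgfbr2 and Tgfbr3) and 4 latent TGF-beta binding proteins (Ltbp1, Ltbp2, Ltbp3 and Ltbp4). They were taken by name, with earlier results of these data known, from a count table of 55453 gene symbols, and all 10 were among the 16170 genes with enough counts to be tested. The lowest count of any member in any library was 244, so no member owed its place to a single group.

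Bulk RNA sequencing was performed on GFP+ cells that were sorted from apical ventricle tissue, with 18 libraries in 6 groups of 3. All pups, on a C57BL/6J background, carried Tcf21-MerCreMer and Rosa-mTmG and received tamoxifen at P1, controls included, so that cells of the Tcf21 lineage and their descendants were labelled with membrane GFP. P2 baseline and P10 baseline pups were un-manipulated. The groups P2 sham +3 days and, with apical resection in place of sham surgery, P2 resected +3 days were operated on at P2 and collected at P5. The groups named P10 sham +3 days and, with resection, P10 resected +3 days were operated on at P10 and collected at P13. Apical resection removes the tip of the left ventricle, and the heart regenerates after it when it is done shortly after birth but scars when it is done later. The P2 groups form the regenerative window and the P10 groups the non-regenerative window, with 9 libraries each. Only cells that expressed Tcf21 when tamoxifen was given are marked, so fibroblasts of other origins are not sampled. How many pups went into a library, and their sex, is not given in the sources used here, and p-values measure the spread between these libraries.

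TGF-beta is secreted as a latent complex, in which the mature ligand stays wrapped in its own propeptide. In most complexes the propeptide is bound to a latent TGF-beta binding protein, which anchors it to fibrillin microfibrils until integrins, proteases or thrombospondin release the ligand. Free ligand binds TGFBR2, which recruits and phosphorylates TGFBR1, and the active receptor phosphorylates SMAD2 and SMAD3. In the heart this pathway is best known for turning fibroblasts into matrix-producing cells after injury.

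Library depth was 10462737 to 22980554 reads assigned to genes. Levels are given as CPM, read counts scaled to a common library size with TMM factors. In this bulk measurement, fewer cells of a type and less RNA per cell cannot be told apart. Tcf21 itself was at 202.5 to 447 CPM in the P2 window and 231 to 376 CPM in the P10 window, and Pdgfra, the other defining fibroblast marker, at 256 to 581 and 333 to 878 CPM. The summed level of 8 fibroblast markers was 10345 to 10898 CPM at P2 baseline and 18844 to 21646 CPM at P10 baseline. At P10 sham +3 days it was 28229 to 33182 CPM. Of the 8, 4 were called higher in the P10 window, where 13.5% of all genes tested were called in either direction. Over 12 cardiomyocyte markers, of which 7 were called lower in the P10 window, the sum was 1187 to 1571 CPM at P2 baseline and 558 to 744 CPM at P10 baseline, and over 9 mural cell markers, 4 of them called higher and Mcam called lower, it was 518 to 848 and 1048 to 2006 CPM. The mural sums of the sham groups overlapped, at 564 to 1368 CPM at P2 and 886 to 1337 CPM at P10. Macrophage markers had a median log2 fold change of 0.97 between the windows, with 12 of 15 above 0 and 1 called. The sum over 9 epicardial markers was 86.3 to 95.4 CPM at P2 baseline and 30.1 to 51.7 CPM at P10 baseline. Most rest on few genes, as 2, 7 and 5 of the 9 were at 0 in P2 baseline replicates 1, 2 and 3. In P10 baseline replicates 1, 2 and 3 it was 8, 6 and 5. Tbx18 was the 1 called between the windows, as lower at P10. The epicardial sums of the resected groups overlapped, at 62.5 to 81.5 CPM at P2 and 50.1 to 100.0 CPM at P10. The mural cell marker Rgs5 and the cardiomyocyte marker Myh6 were detected in all 18 libraries. The part of these markers in the age differences below was not tested. P10 baseline replicate 1, P10 sham +3 days replicate 1 and P2 sham +3 days replicate 1 stood apart from their groups for several members. Some of the results that rest on them, not all, are given with and without them. These 3 libraries share the number 3 in their titles, of which the labels say nothing more, and their deviations from their group means correlated over genes (r = 0.29 to 0.38 for the 3 pairs). Without all 3 together, a choice made after seeing the data, the quasi-likelihood test of edgeR called 7 members and 22.5% of all genes between the windows, as Tgfb2 was then lower (log2 fold change -0.48, adjusted p = 0.0412). It called 5 members and 16.8% of all genes between the baseline groups, with Ltbp1 added (adjusted p = 0.0479). Between the sham groups it called 2 members and 2.62% of all genes, where Tgfbr3 (adjusted p = 0.0263) and Ltbp1 (0.00871) were called and Tgfbr2 (0.0633) and Ltbp3 (0.0732) were not. Resection calls stayed at 0 members.

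Levels were first compared between members per kilobase of exon, since longer genes collect more reads. Tgfb3 was the most abundant ligand in every group, with 60.6% ± 4.45 (SD, n = 3) of the summed ligand CPM per kilobase at P2 baseline and 76.9% ± 8.18 at P10 baseline. Tgfb2 held 31.8% ± 2.47 at P2 baseline and 17.7% ± 9.11 at P10 baseline, and Tgfb1 held between 3.87% and 7.59% in all 6 groups. These shares use the union of all exons, and with the length of the longest transcript Tgfb1 held 7.17% to 13.2% and Tgfb3 54.5% to 76.5%, with the order of the ligands as before in each group. Among the receptors, Tgfbr2 led with group means of 57.1% to 67.8%. Ltbp4 held 86.9% to 92.0% of the CPM per kilobase of the latent TGF-beta binding proteins, and Ltbp3 6.06% to 8.71%. At P10 baseline Ltbp4 stood at 642 ± 58.8 CPM per kilobase (SD, n = 3), against 42.6 ± 8.50 for Ltbp3, 8.72 ± 2.46 for Ltbp2 and 6.84 ± 2.02 for Ltbp1. These fibroblasts thus carried far more Ltbp4 RNA per unit length than RNA of the other 3 binding proteins. No test was made of the shares.

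**Figure D1:**
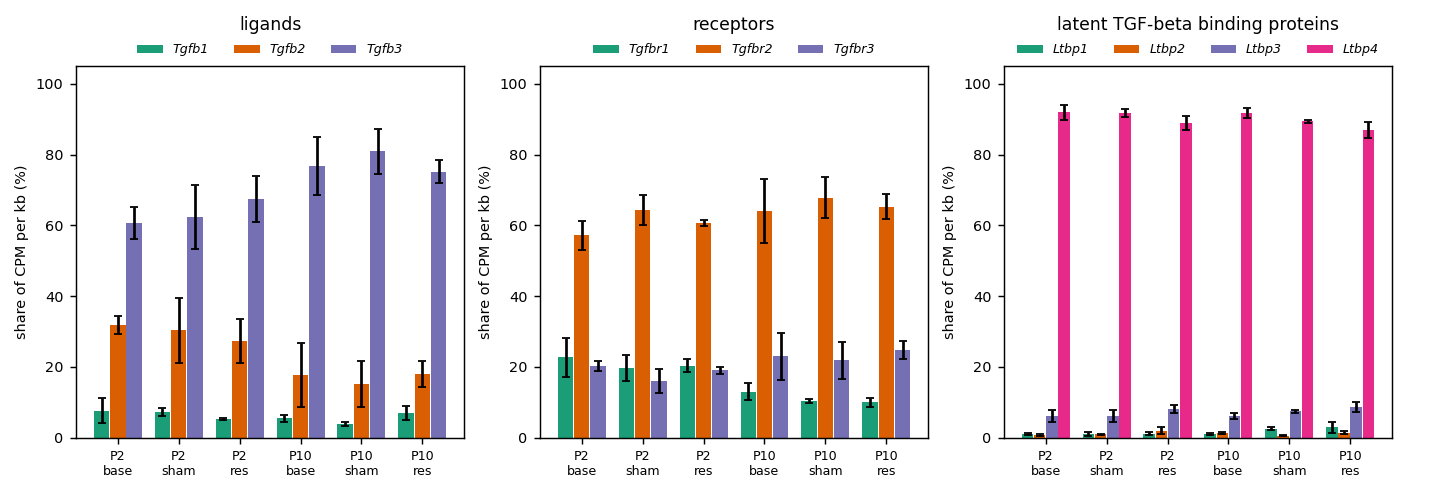
Share of each gene in the CPM per kilobase of its role (percent, y axis) in the 6 groups (x axis), for ligands, receptors and latent TGF-beta binding proteins. Bars are means and lines SD of 3 libraries. Tgfb3, Tgfbr2 and Ltbp4 lead their roles in every group, and the share of Tgfb3 goes from 60.6% at P2 baseline to 76.9% at P10 baseline.

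To ask what changes between the regenerative and the non-regenerative window, the 9 P10 libraries were set against the 9 P2 libraries. With the quasi-likelihood test of edgeR (Benjamini-Hochberg adjusted) over all genes, 6 of the 10 members were higher in the P10 window and 0 lower, where 13.5% of all genes tested were called in either direction (1149 up and 1034 down). Those 6 were Tgfb3, Tgfbr2, Tgfbr3, Ltbp1, Ltbp3 and Ltbp4. A gene was called at an adjusted p under 0.05. The median log2 fold change was 0.76 over the 10 members and -0.06 over all genes tested. Each of the 6 calls held in 25 of 25 alternative fits, among them those without each of the 18 libraries.

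Among the ligands, Tgfb3 is the isoform known for its part in palate and lung development, and its gene spans bases 86056745 to 86079041 of chromosome 12 (GRCm38). In the P2 window it was at 129, 144 and 87.9 CPM at baseline, 135, 95.9 and 117 CPM after sham surgery and 126, 178 and 291 CPM after resection. In the P10 window the values were 216, 249.9 and 251 CPM at baseline, 214, 273 and 215 CPM after sham surgery and 185, 235 and 206 CPM after resection. P2 resected +3 days replicate 3 exceeded all P10 libraries, while the other 8 P2 libraries lay below every P10 library. Between the windows it rose by a log2 fold change of 0.69 with a standard error (SE) of 0.16 (adjusted p = 0.00573). Of the exon bases of Tgfb3, 12.4% are shared with Gm37804 and Gm48008 on the other strand, and the counting did not use strand.

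Tgfb1, the isoform most studied in fibrosis, on chromosome 7 from 25687002 to 25705077, was not called. Its range was 14.9 to 28.8 CPM in the P2 window, with a median of 20.9, and 13.6 to 37.6 CPM in the P10 window, with a median of 21.1. Its change between the windows was 0.13 on the log2 scale with a 95% confidence interval of -0.27 to 0.52 (adjusted p = 0.718 from the edgeR test). Tgfb2, on chromosome 1 from 186622792 to 186705989, ranged from 61.1 to 173 CPM (median 115) in the P2 window and from 41.9 to 154 CPM (median 83.4) in the P10 window. It changed by -0.42 on the log2 scale with an interval of -0.91 to 0.07 (adjusted p = 0.253). Among the ligands Tgfb3 was called, while the intervals of the other 2 include 0, and differences between ligands were not tested.

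Tgfbr2 encodes the type II receptor that binds the ligand, and lies on chromosome 9 from 116084293 to 116175360. It was at 243, 336 and 179.6 CPM at P2 baseline, 302, 219.8 and 247 CPM at P2 sham +3 days and 308, 292 and 348 CPM at P2 resected +3 days. At P10 it reached 519, 386 and 284 CPM at baseline, 815, 519 and 479 CPM after sham surgery and 433, 501 and 789 CPM after resection. Only P10 baseline replicate 3 overlapped the P2 range. It rose by 0.92 on the log2 scale (SE 0.17, adjusted p = 0.00136 from the quasi-likelihood test of edgeR (Benjamini-Hochberg adjusted)), that is 1.89-fold.

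Tgfbr3 encodes betaglycan, a co-receptor that presents ligand, above all TGF-beta 2, to the signalling receptors, and is on chromosome 5 from 107106570 to 107289629. Its P2 levels were 68.2, 94.3 and 51.7 CPM at baseline, 72.7, 32.4 and 52.3 CPM after sham surgery and 79.9, 73.9 and 83.8 CPM after resection. The P10 levels were 236, 88.3 and 60.7 CPM at baseline, 297, 107 and 104 CPM after sham surgery and 154, 150.1 and 205 CPM after resection. Replicate 1 of P10 baseline and of P10 sham +3 days held the highest levels of all, and the P10 baseline group overlapped the P2 groups. Between the windows it changed by 1.21 on the log2 scale with a SE of 0.27 (adjusted p = 0.00547 from the edgeR test), and over the alternative fits it ranged from 0.83 to 1.32. Of the exon bases of Tgfbr3, 4.54% are shared with Gm43422 on the same strand.

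Tgfbr1, the type I receptor kinase, on chromosome 4 from 47353222 to 47414931, ranged from 47.5 to 103 CPM in the P2 window and from 36.5 to 122 CPM in the P10 window. Its change was -0.06 on the log2 scale with a 95% confidence interval of -0.52 to 0.40 (adjusted p = 0.91 from the edgeR test). Of the receptors, the ligand-binding receptor and the co-receptor were called and the type I kinase was not, and differences between receptors were not tested. In P10 baseline replicate 1, Tgfbr1 was at 122 CPM against 53.7 and 36.5 CPM in the other P10 baseline libraries, and Tgfb2 was at 154 CPM against 76.4 and 56.0 CPM. That library was the highest of its group for Tgfb2, Tgfbr1, Tgfbr2 and Tgfbr3, and the lowest for Tgfb1 and Tgfb3.

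Ltbp1 is the founding member of the latent TGF-beta binding proteins and lies on chromosome 17 from 75005568 to 75392512. It was at 24.4, 36.2 and 28.7 CPM at P2 baseline, 71.7, 12.5 and 32.8 CPM at P2 sham +3 days and 48.7, 32.0 and 47.0 CPM at P2 resected +3 days. In the P10 window it was at 81.9, 89.0 and 48.5 CPM at baseline, 180.2, 104 and 149 CPM after sham surgery and 98.9, 131 and 223 CPM after resection. The windows overlapped through P2 sham +3 days replicate 1, P2 resected +3 days replicate 1 and P10 baseline replicate 3. The log2 fold change of 1.67 (SE 0.27, adjusted p = 0.000406 from the edgeR test), or 3.19-fold, was the largest of the 10 members.

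Ltbp3, on chromosome 19 from 5740904 to 5758532, binds the propeptides of all TGF-beta isoforms, and its loss in mice alters bone growth. Its level at P2 was 142, 141 and 155 CPM at baseline, 157, 179 and 162 CPM after sham surgery and 185, 302 and 334 CPM after resection. At P10 the level was 424, 438 and 298 CPM at baseline, 364, 345 and 361 CPM after sham surgery and 279, 519.6 and 400.5 CPM after resection. Baseline and sham libraries of the P2 window were all below every P10 library, and 2 of the 3 P2 resected +3 days libraries were not. Ltbp3 had a log2 fold change of 1.02 between the windows (SE 0.14, adjusted p = 9.87e-05 from the edgeR test).

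Ltbp4 binds latent TGF-beta 1 and takes part in elastic fibre assembly, and is on chromosome 7 from 27305136 to 27337692. It was at 1597, 2083 and 1242 CPM at P2 baseline, 2488, 1561 and 1508 CPM at P2 sham +3 days and 1679.7, 2465 and 2231 CPM at P2 resected +3 days. The P10 libraries held 3972, 4589 and 3895 CPM at baseline, 3275, 2859 and 2994 CPM after sham surgery and 2388, 3757 and 2378 CPM after resection. The P10 baseline libraries were the highest of the 18, and the windows overlapped only in P10 resected +3 days replicates 1 and 3 and P2 sham +3 days replicate 1 and P2 resected +3 days replicate 2. Between the windows the log2 fold change was 0.82 (SE 0.14, adjusted p = 0.000798 from the edgeR test).

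Ltbp2, on chromosome 12 from 84783212 to 84876532, is the family member that binds no latent TGF-beta and sits on fibrillin microfibrils. It was not called between the windows, with a log2 fold change of 0.64 and a 95% confidence interval of 0.03 to 1.25 (adjusted p = 0.155 from the edgeR test). The P2 window ran from 11.4 to 103 CPM with a median of 24.8, and the P10 window from 18.9 to 88.3 CPM with a median of 48.2. The high P2 values were those of resected libraries, which are taken up below. D030025P21Rik on the other strand shares 9.34% of the exon bases of Ltbp2.

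**Figure D2:**
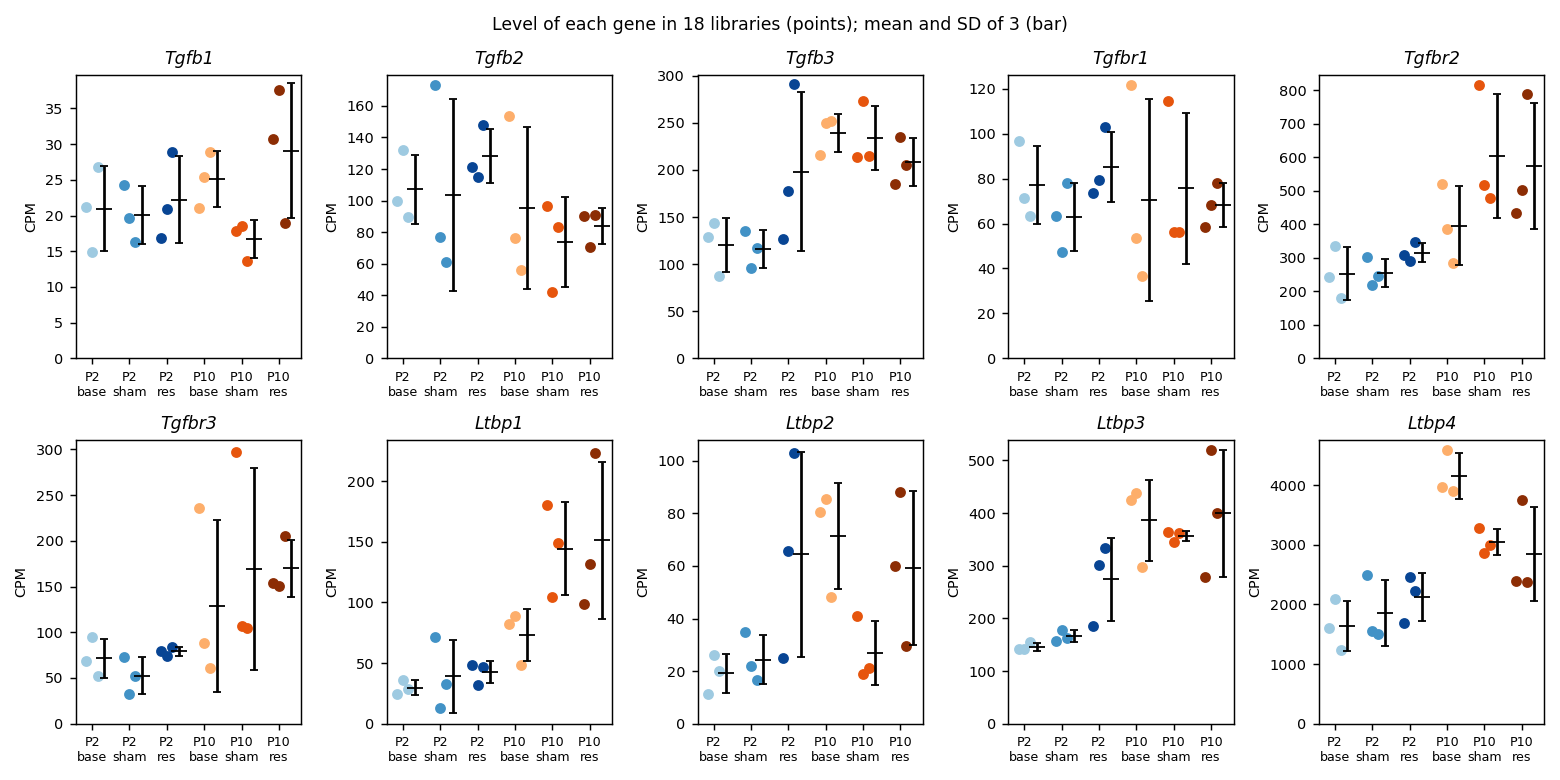
Level of each member in CPM (y axis, from 0) in the 18 libraries (points), by group (x axis), with the mean and SD of the 3 libraries beside them. Ltbp4 goes from 1242 to 2083 CPM at P2 baseline to 3895 to 4589 CPM at P10 baseline, while Tgfb1 stays between 13.6 and 37.6 CPM in all libraries.

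The bases before the start of some of these genes are shown, for 4 genes that were called between the windows and for Tgfb1, which was not. They are RefSeq promoter windows of GRCm38.p6, 250 bases before the start, printed 5′ to 3′ on the strand of the gene and left off where the GENCODE gene begins. Capitals mark the Smad box CAGAC or its reverse complement GTCTG, and the GC box GGGCGG or its reverse complement CCGCCC. Each line names the gene, followed by its window.
Tgfbr2 (chr9:116175364-116175613, - strand): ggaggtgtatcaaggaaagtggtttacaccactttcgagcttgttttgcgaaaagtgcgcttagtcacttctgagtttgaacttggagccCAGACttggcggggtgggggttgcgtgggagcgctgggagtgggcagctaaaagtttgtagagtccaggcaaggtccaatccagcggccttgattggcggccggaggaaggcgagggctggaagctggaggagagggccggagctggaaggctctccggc
Ltbp1 (chr17:75005279-75005528, + strand): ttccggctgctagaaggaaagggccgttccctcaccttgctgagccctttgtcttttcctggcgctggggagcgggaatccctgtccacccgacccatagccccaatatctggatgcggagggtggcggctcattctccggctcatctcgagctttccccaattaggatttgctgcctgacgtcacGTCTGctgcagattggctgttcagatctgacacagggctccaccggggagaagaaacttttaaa
Ltbp3 (chr19:5740650-5740899, + strand): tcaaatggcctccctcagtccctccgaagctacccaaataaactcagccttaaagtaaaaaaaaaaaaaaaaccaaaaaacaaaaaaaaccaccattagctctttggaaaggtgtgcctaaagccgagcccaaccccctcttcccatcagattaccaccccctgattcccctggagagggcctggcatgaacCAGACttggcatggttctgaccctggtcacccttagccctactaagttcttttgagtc
Ltbp4 (chr7:27337693-27337862, - strand): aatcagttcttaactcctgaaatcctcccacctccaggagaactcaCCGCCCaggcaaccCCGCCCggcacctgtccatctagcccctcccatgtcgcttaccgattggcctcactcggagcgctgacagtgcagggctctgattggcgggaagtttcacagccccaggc
Tgfb1 (chr7:25686752-25687001, + strand): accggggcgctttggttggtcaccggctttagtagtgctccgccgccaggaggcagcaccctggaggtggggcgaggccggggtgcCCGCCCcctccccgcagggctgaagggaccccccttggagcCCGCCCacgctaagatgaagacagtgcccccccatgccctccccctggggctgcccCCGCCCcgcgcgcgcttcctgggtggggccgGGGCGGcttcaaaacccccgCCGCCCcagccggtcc
The Smad box was found on either strand in 42.2% of 32851 windows of the same length over the genome, and the GC box in 32.7%. The windows printed for Tgfbr2, Ltbp1 and Ltbp3 each hold 1 Smad box and 0 GC boxes. The upstream window of Ltbp4 holds 0 Smad boxes and 3 GC boxes, of which 2 lie in the 170 bases printed, and that of Tgfb1 0 Smad boxes and 5 GC boxes. GC content was 47.2% for Ltbp3, 56.8% for Ltbp1, 58.4% for Tgfbr2, 64.4% for Ltbp4 and 75.2% for Tgfb1, against a median of 52.4% over all windows. The genes called and those not called both include windows with a Smad box and windows without one, and a match to so short a motif is only a description of the sequence. Windows were given for 8 of the 10 members, 12 in all. Of those not printed, a second Ltbp1 window holds 2 Smad boxes and 0 GC boxes, and the other Ltbp4 windows hold 0 Smad boxes and 5 and 7 GC boxes. Among genes not called between the P2 and P10 windows, Tgfb2 has 2 Smad boxes and 0 GC boxes, Ltbp2 has 2 of each, and the windows of Tgfbr1 have 0 Smad boxes with 2 GC boxes and 1 Smad box with 0 GC boxes.

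Un-manipulated hearts were compared next, without surgery. Older hearts were digested for longer and were collected a longer time after tamoxifen, so age, digestion and time since labelling cannot be told apart in this or any other comparison of P10 with P2. Between P10 and P2 baseline, the quasi-likelihood test of edgeR (Benjamini-Hochberg adjusted) called 4 members higher and 0 lower, namely Tgfb3, Ltbp2, Ltbp3 and Ltbp4, where 4.38% of all genes tested were called. Ltbp2 rose from 19.2 ± 7.38 to 71.3 ± 20.1 CPM (SD over 3 libraries each) and changed by 1.89 on the log2 scale (SE 0.52, adjusted p = 0.0447), and the groups did not overlap. Ltbp3 rose from 146 ± 8.08 to 387 ± 77.1 CPM, a log2 fold change of 1.40 (SE 0.25, adjusted p = 0.00378). For Ltbp4 the means were 1641 ± 422 and 4152 ± 380.2 CPM, with a log2 fold change of 1.34 (SE 0.25, adjusted p = 0.00565). Tgfb3 went from 120.0 ± 28.8 to 239 ± 19.9 CPM, a log2 fold change of 0.99 (SE 0.27, adjusted p = 0.0447). All P10 libraries were above all P2 libraries for these 4 genes and for Ltbp1, where the same held for 10.3% of all genes tested. Ltbp1 had a log2 fold change of 1.30 (adjusted p = 0.13).

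The calls of Ltbp3 and Ltbp4 at baseline held in 14 of 14 alternative fits, and those of Tgfb3 and Ltbp2 in 8 each. By the edgeR test, Ltbp2 had an adjusted p of 0.189, 0.0784 and 0.117 without P2 baseline replicates 1, 2 and 3, and of 0.0595, 0.144 and 0.0586 without P10 baseline replicates 1, 2 and 3. Tgfb3 had an adjusted p of 0.12, 0.0732 and 0.176 without P2 baseline replicates 1, 2 and 3, and of 0.142 and 0.133 without P10 baseline replicates 2 and 3. The log2 fold changes of Ltbp2 stayed between 1.63 and 2.24 and those of Tgfb3 between 0.81 and 1.14. Tgfbr3, which was not called (log2 fold change 0.85, adjusted p = 0.347), rested on P10 baseline replicate 1, without which its log2 fold change was 0.06. Without that library the log2 fold change of Tgfbr1 went from -0.13 to -0.77 (adjusted p = 0.183), and neither value was called.

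Between the sham groups, collected at P13 and P5, the quasi-likelihood test of edgeR (Benjamini-Hochberg adjusted) called 3 members higher at P10 and 0 lower, with 3.18% of all genes called. Tgfbr2 averaged 604 ± 184 CPM (SD, n = 3) at P10 sham +3 days and 256 ± 41.8 CPM at P2 sham +3 days, a log2 fold change of 1.24 (SE 0.30, adjusted p = 0.0282). For Ltbp1 the means were 144 ± 38.2 and 39.0 ± 30.0 CPM and the log2 fold change 1.89 (SE 0.47, adjusted p = 0.036). Ltbp3 had means of 357 ± 9.84 and 166 ± 11.2 CPM and a log2 fold change of 1.10 (SE 0.25, adjusted p = 0.0175). Tgfb3 lay next to the threshold, with a log2 fold change of 1.01 (adjusted p = 0.0502), and Tgfbr3 had one of 1.69 (adjusted p = 0.0629). Each was called in 5 of 14 alternative fits, among them that by DESeq2 (adjusted p = 0.00838 and 0.0133), which called 7.99% of all genes. The groups did not overlap, with P10 above P2, for these 5 genes and for Ltbp4 (log2 fold change 0.72, adjusted p = 0.148), where the same held for 9.07% of all genes tested. Ltbp2 was at 27.0 ± 12.2 CPM at P10 sham +3 days and 24.3 ± 9.36 CPM at P2 sham +3 days (log2 fold change 0.15, adjusted p = 0.941). Its difference between the sham and the baseline contrast was -1.74 and was not called (adjusted p = 0.674).

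The sham calls were lost in several fits with one library fewer, while the direction stayed upward. By the edgeR test, Ltbp3 had an adjusted p of 0.056 and 0.068 without P2 sham +3 days replicates 1 and 3, and of 0.0514 and 0.0567 without P10 sham +3 days replicates 1 and 3, with a log2 fold change of 1.05 to 1.17 in every fit. Tgfbr2 had an adjusted p of 0.104 and 0.0901 without P2 sham +3 days replicates 2 and 3 and of 0.136 without P10 sham +3 days replicate 1, at log2 fold changes of 1.15, 1.21 and 0.96. Ltbp1 had one of 0.0826 and 0.119 without P2 sham +3 days replicates 2 and 3, and of 0.111 and 0.0839 without P10 sham +3 days replicates 1 and 3, at log2 fold changes of 1.48, 1.78, 1.70 and 1.87. Its log2 fold change was 2.67 without P2 sham +3 days replicate 1, where Ltbp1 was at 71.7 CPM. That of Tgfbr3 was 1.01 without P10 sham +3 days replicate 1, and that of Tgfb2 went from -0.49 to 0.10 without P2 sham +3 days replicate 1, and neither was called.

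Between the resected groups 0 members were called by the quasi-likelihood test of edgeR (Benjamini-Hochberg adjusted), where 0.86% of all genes were called. Before adjustment 4 members and 8.77% of all genes had a p under 0.05, and DESeq2's Wald test called 1 member and 499 genes. Ltbp1 came nearest, at 151 ± 64.6 CPM in P10 resected and 42.5 ± 9.17 CPM in P2 resected libraries (SD, n = 3 each), which is a log2 fold change of 1.83 (SE 0.47, adjusted p = 0.0827), without overlap. DESeq2 called Ltbp1. Tgfb3 had a log2 fold change of 0.07 (95% confidence interval -0.49 to 0.64) and Ltbp3 one of 0.54 (interval 0.03 to 1.06). Tgfbr2 had a log2 fold change of 0.86 (adjusted p = 0.268), Tgfbr3 one of 1.10 (adjusted p = 0.474) and Tgfb2 one of -0.61 (adjusted p = 0.811). The groups did not overlap for 4 members, Ltbp1, Tgfbr2 and Tgfbr3 upward and Tgfb2 downward, where 23.3% of all genes tested did not overlap. For Tgfb3 the P2 resected mean was 198 ± 84.4 CPM and the P10 resected mean 208 ± 25.3 CPM.

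Whether resection changed these genes was asked at each age against sham surgery, with 3 libraries in each group. At P2, the quasi-likelihood test of edgeR (Benjamini-Hochberg adjusted) called 0 members and 0% of all genes, and DESeq2's Wald test called 0 members and 22 genes. The log2 fold change was above 0 for 10 of 10 members, against 49.9% of all genes tested, with a median of 0.37 over the members and 0 over all genes. An unadjusted p under 0.05 was reached by 3 members and by 730 genes (4.51%). Those members were Tgfb3 with a log2 fold change of 0.77 (SE 0.27), Ltbp2 with 1.40 (0.51) and Ltbp3 with 0.72 (0.24), each with an adjusted p of 1. Ltbp2 was at 24.8, 65.5 and 103 CPM after resection and 34.7, 21.9 and 16.4 CPM after sham surgery, so that 1 resected library lay inside the sham range. Ltbp3 and Tgfbr3 were higher after resection without overlap, Tgfbr3 at 73.9 to 83.8 CPM against 32.4 to 72.7 CPM (log2 fold change 0.59, adjusted p = 1), where 8.47% of all genes did not overlap in either direction. Without P2 sham +3 days replicate 1, the log2 fold change of Ltbp1 went from 0.12 to 0.91 and that of Tgfb2 from 0.30 to 0.90, and neither was called.

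At P10, the edgeR test called 0 members and 0% of all genes after resection, and DESeq2 called 0 members and 39 genes. The median log2 fold change was 0.03 over the members and 0.02 over all genes, and 6 of 10 members were above 0, against 52.0% of all genes. An unadjusted p under 0.05 was reached by 2 members and 661 genes (4.09%). Tgfb1 was at 30.8, 37.6 and 18.96 CPM after resection and 17.8, 18.6 and 13.6 CPM after sham surgery. The groups did not overlap, as for 8.68% of all genes, but replicate 3 of the resected group lay just above the highest sham library. Tgfb1 was the 1 member without overlap. The log2 fold change of Tgfb1 was 0.80 (SE 0.33, 95% confidence interval 0.12 to 1.49, adjusted p = 1). Ltbp2 was at 60.0, 88.3 and 29.6 CPM after resection and 41, 18.9 and 21.0 CPM in the sham group, a difference of 1.14 on the log2 scale (SE 0.50, adjusted p = 1), with overlap. Tgfbr3 had a log2 fold change of 0.00, which was 0.69 without P10 sham +3 days replicate 1.

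Markers of other cells were set beside these values. The edgeR test called 0 of them after resection, but it also called 0% of all genes there. The count therefore cannot say whether these markers changed. At P2 the sum over 12 cardiomyocyte markers was 341 to 1008 CPM after resection and 1002 to 1419.5 CPM after sham surgery. Their log2 fold changes had a median of -0.78, and 2 of the 12 were above 0. The summed level of 15 macrophage markers was 510, 1189 and 85.1 CPM in P10 resected replicates 1, 2 and 3, and 109, 415 and 331 CPM in the P10 sham libraries. Tgfb1 was thus highest in the resected libraries with the most macrophage signal and lowest in the one with the least. In the P2 resected libraries the order was the reverse, with macrophage sums of 491, 226 and 78.0 CPM and Tgfb1 at 16.8, 20.9 and 28.8 CPM. Csf1r, the receptor that defines macrophages, was at 0 in 2 of the 18 libraries and reached 66.0 CPM in a P10 resected library. The 15 macrophage markers had median log2 fold changes of 0.81 at P2 and 0.80 at P10. For 9 endothelial markers the medians were 0.24 and 1.47, with 8 of 9 above 0 at each age. The sum over 9 epicardial markers was 50.1 to 100.0 CPM in P10 resected and 30.8 to 40.0 CPM in P10 sham libraries. Of these 9 genes, 0, 1 and 5 were at 0 in P10 resected replicates 1, 2 and 3. In P10 sham replicates 1, 2 and 3 it was 8, 5 and 4. Upk3b was at 0 in 9 of the 18 libraries. The part of these markers in the levels of the members was not tested.

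**Figure D3:**
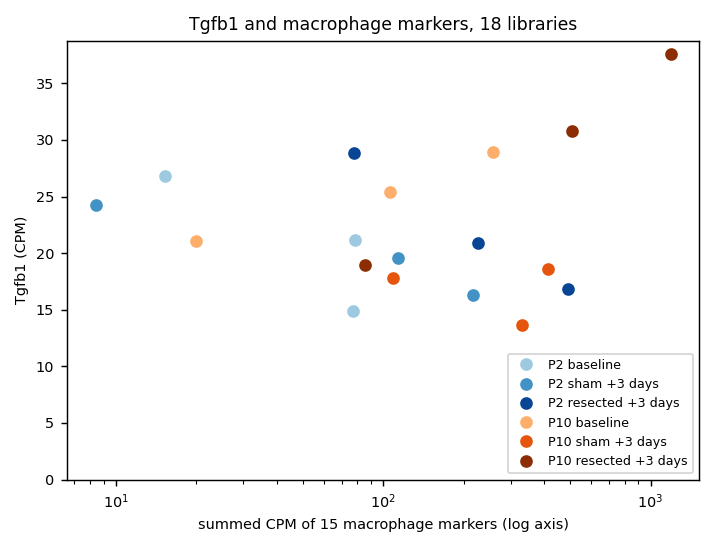
Tgfb1 in CPM (y axis, from 0) against the summed CPM of 15 macrophage markers (x axis, log scale) in each of the 18 libraries, coloured by group. The P10 resected libraries with sums of 510 and 1189 CPM have Tgfb1 at 30.8 and 37.6 CPM, and the one with 85.1 CPM has 18.96 CPM. The P2 resected libraries run the other way, with sums of 491, 226 and 78.0 CPM and Tgfb1 at 16.8, 20.9 and 28.8 CPM.

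Whether resection acted differently at P2 and P10 was tested as a difference of differences. With the quasi-likelihood test of edgeR (Benjamini-Hochberg adjusted), 0 members and 0% of all genes were called, and DESeq2 called 0 members and 12 genes. Before adjustment 465 genes had a p under 0.05, among them 1 member, Tgfb3, whose resection effect was 0.77 at P2 and -0.17 at P10. The difference of -0.94 had a SE of 0.38 and an adjusted p of 1.00. For Tgfb1 the effects were 0.15 and 0.80, and the difference of 0.66 had a 95% confidence interval of -0.31 to 1.63. For Ltbp2 they were 1.40 and 1.14, with an interval of the difference of -1.75 to 1.22.

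**Figure D4:**
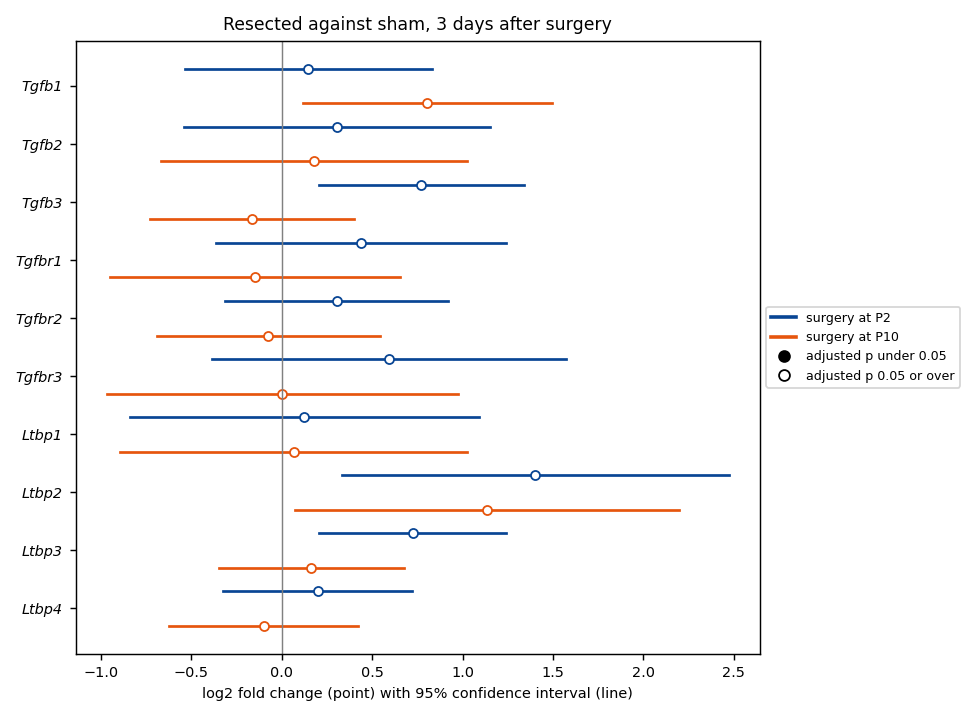
Log2 fold change of each member in resected against sham libraries 3 days after surgery (x axis), as a point with its 95% confidence interval, for surgery at P2 and at P10. No point is filled, as 0 members had an adjusted p under 0.05. At P2 all 10 points lie above 0, and at P10 6 do.

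Sham libraries were also set against baseline libraries of the same window, a comparison that holds surgery without resection and 3 days of growth together. At P2, the quasi-likelihood test of edgeR (Benjamini-Hochberg adjusted) called 0 members and 0% of all genes. No member had an unadjusted p under 0.05 there, against 1229 genes, and DESeq2 called 0 members and 172 genes. Without P2 sham +3 days replicate 1 the log2 fold change of Ltbp1 there went from 0.39 to -0.39 and that of Tgfb2 from -0.05 to -0.64. At P10 the edgeR test called 0 members and 0.00618% of all genes, which is 1 gene, and DESeq2 called 0 members and 159 genes. Unadjusted p-values under 0.05 were reached by 1197 genes at P10, 2 of them members. Ltbp2 was at 80.4, 85.3 and 48.2 CPM at P10 baseline and 41, 18.9 and 21.0 CPM at P10 sham +3 days, a log2 fold change of -1.40 (SE 0.51, adjusted p = 0.618) without overlap. Ltbp1 went the other way, with a log2 fold change of 0.98 (SE 0.46, adjusted p = 0.672), also without overlap. Tgfb1 (log2 fold change -0.59, adjusted p = 0.74) and Ltbp4 (-0.45, adjusted p = 0.743) were lower without overlap too, so that 4 members did not overlap, where 10% of all genes tested did not. Tested as a difference between the ages, the edgeR test called 0 members and 0% of all genes, with 1067 genes, 1 of them a member, at an unadjusted p under 0.05 and, by DESeq2, 0 members and 114 genes called. That member was Ltbp2, whose difference was -1.74 (SE 0.71, adjusted p = 0.674). These comparisons share the sham libraries with the resection comparisons and the baseline libraries with the age comparison, so their values for a gene are not independent of each other. Without P10 baseline replicate 1 the log2 fold change of Tgfbr3 from P10 baseline to sham went from 0.40 to 1.18, and without P10 sham +3 days replicate 1 to -0.28.

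The rest of the pathway was taken from 53 genes in 5 lists, of which 52 were tested. Between the windows, the quasi-likelihood test of edgeR (Benjamini-Hochberg adjusted) called 13 of them higher and 3 lower in the P10 window, and 36 were not called, where 13.5% of all genes were called. DESeq2 called 14 higher and 6 lower, with Bambi, Acta2 and Tagln added to those lower. Their median log2 fold change was 0.10. Between the baseline groups 10 were higher and 1 lower, where 4.38% of all genes were called. Between the sham groups 4 were higher and 1 lower, where 3.18% of all genes were called. In the resected groups 1 was higher at P10 and 0 lower, where 0.86% of all genes were called, and the median log2 fold change was -0.07. At either resection comparison the edgeR test called 0 of them, as it did of all genes, while DESeq2 called 2 after resection at P10, Pmepa1 and Ccn2.

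Of 6 genes of the scaffold that holds latent complexes, 1 rose in the P10 window, a share near the 13.5% of all genes called. This was Fbln5, a fibulin of elastic fibres, at 349 ± 120.5 CPM in the P2 window and 682 ± 91.0 CPM in the P10 window (SD, n = 9 each), which is a change on the log2 scale of 1.03 (adjusted p = 1.82e-05 from the edgeR test). Of 12 genes tested that act on latent TGF-beta 4 rose, namely Lrrc32, Mmp2, Itgb5 and Furin. Lrrc32 encodes GARP, which holds latent TGF-beta on the cell surface, and went from 169 ± 56.2 to 309 ± 56.1 CPM (log2 fold change 0.91, adjusted p = 9.88e-05). Mmp2, a gelatinase, went from 2063 ± 319 to 3771 ± 500.0 CPM (log2 fold change 0.87, adjusted p = 1.81e-05 from the edgeR test). Every P10 library was above every P2 library, which was not counted over all genes. Itgb5, a subunit of an integrin that releases TGF-beta, had a log2 fold change of 0.77 (adjusted p = 0.000226).

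Among 8 accessory receptors and matrix traps, Dcn, Bgn and Acvrl1 rose and Cd109 fell by the edgeR test, where 13.5% of all genes were called. Dcn, which encodes decorin, a proteoglycan that binds TGF-beta, went from 7133 ± 1785 CPM in the P2 window to 13679 ± 3051 CPM in the P10 window (SD, n = 9 each), which is a change on the log2 scale of 0.95 (adjusted p = 0.000262). Acvrl1, the ALK1 receptor best known from endothelium, rose with a log2 fold change of 0.69 (adjusted p = 0.00359), and Esam was the 1 of 9 endothelial markers called. Their sum was 229 to 361 CPM at P2 baseline and 370.3 to 422 CPM at P10 baseline, while the sham groups overlapped, at 185 to 355 and 288 to 509.5 CPM. The median log2 fold change of the 9 was 0.06 between the windows and -0.43 between the baseline groups. Pecam1 was detected in all 18 libraries, and the part of endothelial markers in the level of Acvrl1 was not tested. Cd109, a co-receptor that restrains the signal, fell from 12.5 ± 7.54 to 3.48 ± 3.77 CPM (log2 fold change -2.51, adjusted p = 0.0108). Of 13 Smad genes and regulators 2 were called, a share near that of all genes, as Pmepa1 rose (log2 fold change 0.74, adjusted p = 0.000261) and Smad6, an inhibitory Smad, fell from 57.2 ± 19.7 to 19.6 ± 5.97 CPM (log2 fold change -1.53, adjusted p = 3.56e-05). Smad2, Smad3 and Smad4, which carry the signal, were not called.

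Of 13 genes known to respond to TGF-beta, 4 rose and 1 fell between the windows by the edgeR test, where 13.5% of all genes were called. They were Tgfbi, Eln, Ccn2 and Col3a1 upward and Postn downward. Tgfbi, named for its induction by TGF-beta, went from 54.5 ± 18.4 CPM in the P2 window to 152 ± 31.0 CPM in the P10 window (SD, n = 9 each). Its log2 fold change was 1.53 (adjusted p = 3.28e-06 from the edgeR test), without overlap. The share of all genes without overlap between the windows was not counted. Eln, which encodes elastin, went from 1029 ± 702 to 2423 ± 715 CPM (log2 fold change 1.39, adjusted p = 0.000211). Postn, which encodes periostin, moved the other way, from 13018 ± 3559 to 5614 ± 3087 CPM (log2 fold change -1.24, adjusted p = 0.00269). The list thus held calls in both directions. Its median log2 fold change was 0.22 between the windows.

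After resection all 13 responsive genes had a log2 fold change above 0 at P2 and at P10, with medians of 0.76 and 0.47. The edgeR test called 0 of them, and 0% of all genes, in either resection comparison. Ccn2, the connective tissue growth factor gene, averaged 387 ± 187 CPM after resection and 185 ± 36.4 CPM after sham surgery at P2 (log2 fold change 1.07, SE 0.34, adjusted p = 1, SD over n = 3 each). At P10 it averaged 746 ± 113 and 280.5 ± 31.3 CPM (log2 fold change 1.41, SE 0.34, adjusted p = 0.626 from the edgeR test). The groups did not overlap, as for 8.68% of all genes. Gm15270 on the other strand shares 23.2% of the exon bases of Ccn2. Postn had log2 fold changes of 0.15 at P2 and 0.10 at P10. Over all genes tested the share above 0 was 49.9% at P2 and 52.0% at P10. Of the 52 pathway genes tested, which include these 13, 46 were above 0 at P2 and 38 at P10. Of 15 macrophage markers, 13 were above 0 at P2 and 14 at P10, with medians of 0.81 and 0.80. Of 8 fibroblast markers, 3 and 2 were above 0. Other lists thus shared the upward lean, and its cause was not tested.

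The members were last compared by the shape of their profile, as the root mean square difference between log2 CPM values, each centred on its own mean, over the 18 libraries. The closest pair was Tgfb3 and Ltbp4, which differed by 0.30, followed by Tgfb3 and Ltbp3 with 0.33, Tgfbr2 and Tgfbr3 with 0.35 and Ltbp3 and Ltbp4 with 0.36. Ltbp1 and Tgfb2 were the most unlike, at 1.24. Among all genes tested, the profile nearest to Tgfb3 was that of Vasn (0.23), and the nearest to Ltbp4 that of Mmp2 (0.23). For Ltbp3 it was Adamts2 (0.24), for Ltbp1 Ccdc80 (0.46) and for Ltbp2 Col1a1 (0.52). Tgfbr1 was nearest to Wwtr1 (0.20), Tgfbr2 to Stat3 (0.24) and Tgfbr3 to Nid1 (0.27). Tgfb1 was nearest to Rusc1 (0.28) and Tgfb2 to Prkd3 (0.22). The standard deviation of the members' own log2 CPM ran from 0.39 for Tgfb1 to 1.11 for Ltbp1, so that likeness to Tgfb1 is in part likeness to a flat profile. All points of a profile share their libraries and depth.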

How the data were processed

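RNA was sequenced from 18 libraries of sorted GFP+ cells. The deposited counts are whole reads per gene symbol. According to the methods and the submitters' processing notes, the authors trimmed reads with fastp 0.20.0, mapped them with STAR 2.7.0f to GRCm38.p6 with GENCODE M22, and counted exon reads with featureCounts of Subread 1.6.4 without regard to strand, so reads of overlapping genes on opposite strands cannot be told apart. No other column of per-sample values was in the table.

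From these counts, genes passing filterByExpr (minimum count 10, minimum total 15) were scaled by TMM and tested in R 4.3.3 with edgeR 4.0.16 (quasi-likelihood fit, 1 mean per group, all 18 libraries, Benjamini-Hochberg adjustment over all genes tested, threshold 0.05). Alternatives were relative log expression scaling, no filter, robust estimation, only the groups compared, the replicate number as a block, limma 3.58.1 voom with sample weights, DESeq2 1.42.0, leaving out each library and, chosen after seeing the data, leaving out 3 libraries that share a title number. Replicates of a group differed by a chi-square per gene of 33.0 to 304, so none was a duplicate. Depth was 10462737 to 22980554 counts per library, and the lowest count of a member was 244. Scripts were tested on simulated data.

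Gene positions and exon lengths came from GENCODE M21 of GRCm38, the release before that of the authors, and promoter sequences from RefSeq on GRCm38.p6. Named genes were the members, up to 3 called genes per pathway list with the largest change between the windows, the gene nearest in profile to each member, Ccn2 and Postn after resection, Tcf21 and Pdgfra, and the defining markers Csf1r, Pecam1, Rgs5, Myh6 and Upk3b. 1 further gene of that rule is not reported here. Furin, Bgn, Col3a1, Pmepa1 after resection, Bambi, Acta2, Tagln, Mcam, Esam, Tbx18, Smad2, Smad3 and Smad4 fell outside that rule and were named after their values were seen. The members, lists and comparisons were chosen with earlier results of these data known.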

Additional observations from a re-analysis of the deposited data

How the results depend on the processing

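Of the 13 member calls, 8 held under every alternative, among them all 6 between the windows. Of 1620 member estimates under alternatives, 98 had the other sign, and 0 of these were called in either fit. Between the baseline groups, 2 to 3 members in place of 4 were called with one library left out. There 5 were called without the filter and 5 by voom, with Ltbp1 added (adjusted p = 0.00246 and 0.0106), and 3 with only the groups compared, where Tgfb3 had an adjusted p of 0.0767. Between the sham groups, 3 members were called and 0 to 3 with one library left out, 5 without the filter on low counts, 5 by DESeq2 (Tgfb3 and Tgfbr3 added), 6 by voom with sample weights (Tgfb3, Tgfbr3 and Ltbp4 added) and 0 when only the groups compared were fitted. Between the resected groups, where 0 were called, it was 2 without the filter (Tgfbr3 and Ltbp1), 1 by DESeq2 (Ltbp1), 3 by voom (Tgfbr2, Tgfbr3 and Ltbp1) and 2 with only the groups compared (Tgfbr3 and Ltbp1). From P10 baseline to P10 sham, 1 member (Ltbp2) was called without the filter. Without the filter Ltbp2 was also called between the windows (adjusted p = 0.0184). After resection at P10, DESeq2 called 2 pathway genes, 1 of the Smads and their regulators and 1 of the responsive genes. The cause of these differences was not tested.

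Over all genes, 2183 were called between the windows, 3179 by DESeq2 and 4569 by voom. Between the baseline groups 709 were called, 1674 by DESeq2, 3645 by voom, 1155 without the filter, 295 with only the groups compared and 264 to 1207 with one library left out. Between the sham groups 515 were called, 1272 by DESeq2, 707 by voom, 911 without the filter, 125 with only the groups compared and 312 to 416 with one library left out. Between the resected groups 139 were called, 499 by DESeq2, 526 without the filter, 908 by voom, 332 with only the groups compared and 30 to 136 with one library left out. Without the filter 24 genes were called after resection at P2 and 76 at P10, 110 from baseline to sham at P2 and 151 at P10, and 30 and 171 for the differences of the resection and the sham effects between ages.

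With the replicate number as a block, 6 members and 2745 genes were called between the windows and 4 and 1008 between the baseline groups. Between the sham groups it was 4 members and 636 genes (Tgfbr3 added, adjusted p = 0.0378 from the edgeR test). In the other comparisons 0 members were called. Replicate numbers were not taken to pair the libraries. The correlation of deviations had a median of 0.0466 (range -0.135 to 0.378) over 45 same-number pairs and -0.0248 over 90 other pairs, and 10 of 18 libraries correlated best with their own number. By the number in the titles the median was 0.00765 over 18 same-number pairs and 0.00146 over 88 others, while the 3 pairs of title number 3 had 0.291 to 0.378. Without those 3 libraries 3778 genes were called between the windows, 2820 between the baseline groups, 440 between the sham groups, 26 after resection at P2 and 463 from P2 baseline to sham. With 3 libraries a group, a difference had to exceed the spread between libraries to be called. The lowest count of a member was 244, and whether depth limited a call was not tested.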
